A study of Mus musculus with 96 samples.

Results

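The sterol genes described here are Hmgcs1, Sqle, Cyp51, Insig1, Fdps, Msmo1, Stard4 and Srebf2. They were taken by gene symbol from the array's probe annotation, which gave 1 transcript cluster for each of them, so that 8 of 19505 named genes were followed. Expression was measured on single-colour Affymetrix arrays, 96 in all, in 4 tissues of each of 24 C57BL/6JOlaHsd mice, namely striatum, liver, pancreas and the fat around the gonads. Mice were bought at 6 weeks of age and left to acclimatise for at least 10 days. They then received 1 subcutaneous injection a day for 28 days of vehicle (saline with 5% DMSO and 5% Tween 20), risperidone at 1 mg/kg or olanzapine at 3.5 mg/kg, and were killed 1 h after the last injection. Each treatment group held 4 females and 4 males, which gave 8 arrays per group and tissue, and all groups shared the strain, the solvent and the injections. Both drugs are second-generation antipsychotics. Their doses differed, so a difference between olanzapine and risperidone is a difference between 2 treatments and not between compounds at a matched dose.

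Cells make cholesterol from acetyl-CoA in a long chain of reactions, most of whose enzymes are under joint control of the transcription factor SREBP2. When sterols in the endoplasmic reticulum are scarce, the escort protein Scap carries the SREBP2 precursor to the Golgi, where proteases release the active factor. When sterols are plentiful, Insig proteins hold Scap and the precursor back. The liver makes much of the cholesterol of the circulation, whereas the brain makes its own behind the blood-brain barrier and uses much of it for myelin. Of the 8 genes, Srebf2 encodes SREBP2 itself and Insig1 encodes one of the proteins that retain it. Hmgcs1 (cytosolic HMG-CoA synthase), Fdps (farnesyl diphosphate synthase), Sqle (squalene epoxidase), Cyp51 (lanosterol 14-alpha-demethylase) and Msmo1 (methylsterol monooxygenase) are enzymes of the chain, and Stard4 is a soluble carrier that moves cholesterol between membranes.

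The sequences upstream of the start sites of Hmgcs1, Insig1 and Cyp51 are shown because the results below turn on these genes. They are RefSeq sequences of mouse build GRCm38.p6, 5′ to 3′ on the strand of the gene, and cover the 250 bases before the annotated start. Promoters of 5 of the 8 genes were matched by symbol (Hmgcs1, Insig1, Cyp51, Msmo1 and Srebf2), and those of Sqle, Fdps and Stard4 were not used here. Capitals mark exact matches on either strand to TCACNCCAC (the core of the sterol regulatory element bound by SREBPs), CCAAT (the box bound by NF-Y, read as ATTGG on the other strand) and GGGCGG (the box bound by Sp1, read as CCGCCC on the other strand).
Hmgcs1, chr13:119690101-119690350, plus strand: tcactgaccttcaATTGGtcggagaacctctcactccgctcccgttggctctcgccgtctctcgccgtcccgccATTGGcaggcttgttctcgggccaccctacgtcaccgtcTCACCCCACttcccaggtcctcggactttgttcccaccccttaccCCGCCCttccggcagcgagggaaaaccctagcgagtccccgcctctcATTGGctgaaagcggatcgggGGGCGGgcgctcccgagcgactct
Insig1, chr5:28071162-28071411, plus strand: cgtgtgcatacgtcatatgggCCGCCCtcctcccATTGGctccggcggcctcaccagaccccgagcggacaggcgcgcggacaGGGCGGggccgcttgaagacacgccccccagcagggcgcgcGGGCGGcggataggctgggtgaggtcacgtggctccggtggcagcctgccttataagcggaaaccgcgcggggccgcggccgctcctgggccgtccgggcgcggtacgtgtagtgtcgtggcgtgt
Cyp51, chr5:4104698-4104947, minus strand: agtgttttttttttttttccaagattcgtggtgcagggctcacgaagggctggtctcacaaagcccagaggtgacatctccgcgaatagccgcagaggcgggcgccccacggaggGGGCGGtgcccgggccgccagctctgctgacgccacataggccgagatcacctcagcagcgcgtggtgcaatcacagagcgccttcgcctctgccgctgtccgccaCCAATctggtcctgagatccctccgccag

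The sterol element core was found in the Hmgcs1 promoter, at position -137 from the start, and in none of the other 4 in these exact letters. Over all 32851 promoters of the same 300-base window (250 bases before to 50 after the start), 1.24% held it. The CCAAT box was present in all 5 member promoters against 37.4% of all promoters, with 4 copies in the Hmgcs1 window, 3 in that of Msmo1 and 1 in each of the others. The GGGCGG box was also present in all 5, against 35.7% of all promoters. These are matches of letters, and binding of a factor was not measured.

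The arrays carried the markers of their labelled tissues, with exceptions that bear on the results. The deposited values are on a log2 scale, and array medians lay between 7.58 and 7.69 in striatum, 6.07 and 6.28 in liver, 6.71 and 6.94 in pancreas, and 7.41 and 7.71 in adipose tissue. Pancreas was the least uniform tissue, with a median correlation of each array with the others of its tissue between 0.647 and 0.847 (0.971 to 0.979 in liver). In striatum, the mean log2 value of 7 markers of striatal neurons ran from 14.27 to 16.27 in vehicle, from 15.30 to 16.39 in risperidone and from 12.34 to 15.27 in olanzapine mice, so the last 2 groups did not overlap. Choroid plexus markers in the same arrays ran from 7.39 to 11.02, from 7.89 to 12.00 and from 7.65 to 10.31. In adipose tissue, 4 epididymis markers had a mean log2 value of 18.09, 18.64 and 18.67 in the risperidone males M4, M5 and M23, 12.72 in the olanzapine male M9 and 10.97 in the risperidone male M24, against 6.70 to 9.64 in the other 19 arrays. The pancreas array of the risperidone female F4 had a liver marker mean of 15.07, against 6.92 to 12.27 in the other 23. In such bulk samples, fewer cells of a type and less RNA per cell cannot be told apart. The tissues were labelled with 2 different kits and were therefore analysed each on its own, and the level of a gene is not set against that of another gene.

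None of the 8 genes passed the test against vehicle under either drug in any tissue. The test was limma with sex as a term over all 24 mice of a tissue, with Benjamini-Hochberg adjustment over 19505 genes and a threshold of 0.05. Few genes of any kind passed it. The share of all genes called was 0% for both drugs in striatum, pancreas and adipose tissue, and in liver it was 0.041% for risperidone and 0.0205% for olanzapine. At an unadjusted limma p under 0.05, the number of sterol genes under risperidone and olanzapine was 1 and 1 in striatum, 0 and 3 in liver, 2 and 1 in pancreas, and 3 and 4 in adipose tissue. The shares of all genes at that threshold were 5.40% and 10.55%, 5.40% and 6.56%, 3.24% and 8.24%, and 9.03% and 5.46%, in the same order. Both drug comparisons share the vehicle mice, so their values are not independent.

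**Figure D1:**
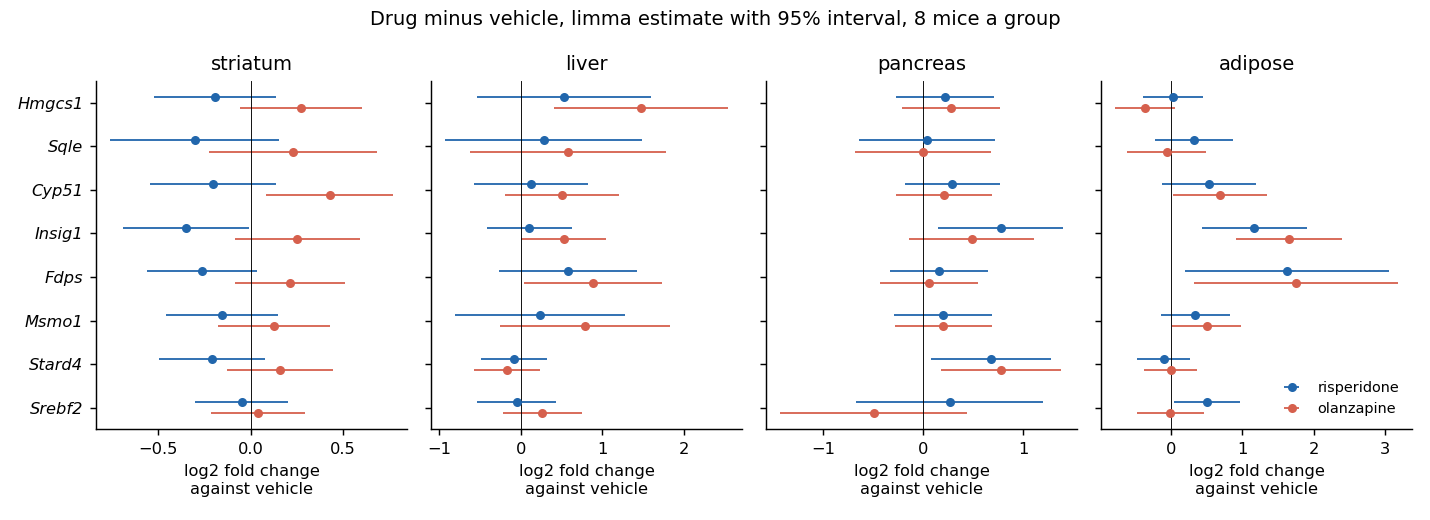
Log2 fold change against vehicle (x axis) of the 8 sterol genes (rows) in each tissue (panels) under risperidone (blue) and olanzapine (red), with 95% intervals from limma and 8 mice a group. In striatum all 8 estimates lie below 0 for risperidone and above 0 for olanzapine, and the adipose panel holds the values for Fdps and Insig1 above 1.

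In striatum, all 8 sterol genes had lower means under risperidone and higher means under olanzapine than under vehicle, with none of these differences past the threshold. The median log2 fold change was -0.21 for risperidone and 0.22 for olanzapine, against -0.0038 and -0.0012 over all genes. The difference that passed was the one between the drugs. Cyp51 was higher in olanzapine than in risperidone mice by 0.63 on the log2 scale (SE 0.17, 1.55-fold, limma adjusted p = 0.0276) and Insig1 by 0.60 (SE 0.17, 1.52-fold, limma adjusted p = 0.0325). Hence 2 of the 8 were called, both higher under olanzapine, where 4.86% of all genes were called (557 higher and 391 lower).

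The log2 values of Cyp51 in striatum had a lowest, median and highest value of 11.35, 11.86 and 12.23 in vehicle mice, of 11.13, 11.56 and 12.16 in risperidone mice and of 11.40, 12.23 and 12.69 in olanzapine mice. In all, 6 olanzapine mice exceeded every risperidone mouse. The other two lay inside the risperidone range, a female at 12.01 and a male at 11.40, below the risperidone median. The olanzapine mean was 12.21 ± 0.39 and the risperidone mean 11.59 ± 0.33 (SD, n = 8). The two-sided exact permutation test of their difference over 12870 relabellings, which do not take sex into account, gave p = 0.00544, unadjusted. Insig1 ran over 10.72, 11.23 and 11.58 in vehicle, 10.31, 10.80 and 11.43 in risperidone and 10.96, 11.50 and 11.92 in olanzapine mice, and again 6 olanzapine mice lay above all risperidone mice. Of the remaining genes, Fdps had the clearest separation of the groups, with 7 olanzapine mice above every risperidone mouse and all 8 above the risperidone median. Its values were 6.32, 6.76 and 7.03 in risperidone and 6.97, 7.13 and 7.69 in olanzapine mice, a difference of 0.47 (SE 0.14, limma adjusted p = 0.054) that did not pass.

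Hmgcs1, the enzyme that condenses acetoacetyl-CoA with acetyl-CoA, was in the same direction with 0.46 (SE 0.16, limma adjusted p = 0.0938), its 8 olanzapine values all above the risperidone median. Sqle, the first oxygenation step, gave 0.53, Stard4 gave 0.37 and Msmo1 gave 0.28, with limma adjusted p of 0.178, 0.13 and 0.308. Srebf2 stood apart, with values from 13.86 to 14.57 in risperidone and from 14.03 to 14.52 in olanzapine mice and a difference of 0.09 (95% interval -0.16 to 0.34). The median over the 8 genes was 0.47 and that of all genes -0.0075. Unadjusted exact permutation p for Fdps, Stard4, Hmgcs1 and Sqle were 0.000932, 0.00591, 0.00995 and 0.0253, where the smallest value possible with 8 against 8 mice is 0.000155.

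**Figure D2:**
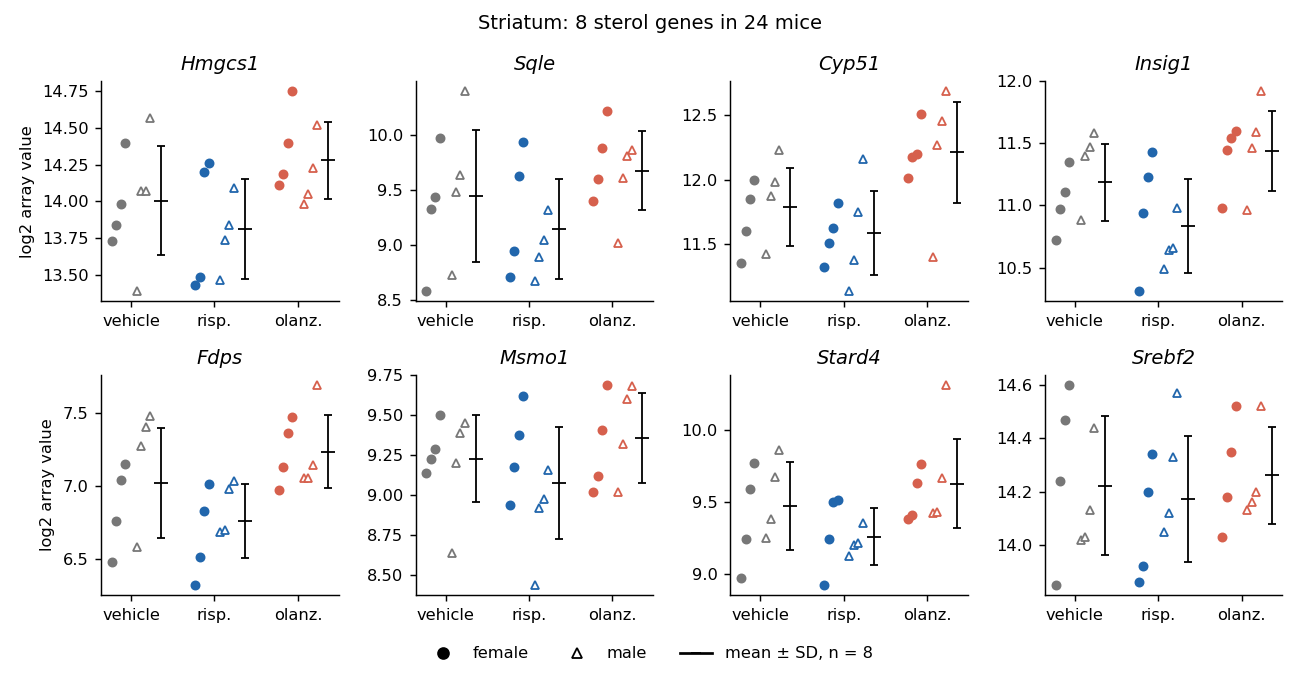
Log2 array values (y axis) of the 8 sterol genes in striatum, 1 point per mouse, for vehicle, risperidone and olanzapine groups, with females as filled circles, males as open triangles and bars for the mean and SD of 8 mice. The olanzapine points of Cyp51, Insig1 and Fdps lie mostly above the risperidone points, whereas those of Srebf2 overlap throughout.

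The sterol genes in striatum varied with the striatal markers from mouse to mouse. Across the 24 mice, as deviations from the mean of each treatment and sex, the mean of the 8 genes correlated with the mean of the 7 striatal neuron markers at r = -0.63 (Spearman's rho -0.76), given as a description. Of the 12 marker lists examined, that of macrophages came close to it, with r = -0.62 (rho -0.57), on means of 8.58 to 8.98 in risperidone and 8.50 to 8.73 in olanzapine mice. The other 10 lists gave r between -0.38 and 0.37, among them 0.14 for oligodendrocyte, 0.37 for astrocyte and 0.23 for choroid plexus markers. With the striatal marker mean as a further term in the fit, an alternative added after the values were seen, none of the 8 genes and none of all genes passed for olanzapine against risperidone. The values then were 0.32 for Cyp51 and 0.23 for Insig1, and the median of the 8 was 0.15, against 0.47 without the term. With choroid plexus markers as the term instead, both genes passed, at 0.79 and 0.73. Because the marker means of the drug groups did not overlap, the part of cell content in this difference and that of the drugs cannot be told apart.

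**Figure D3:**
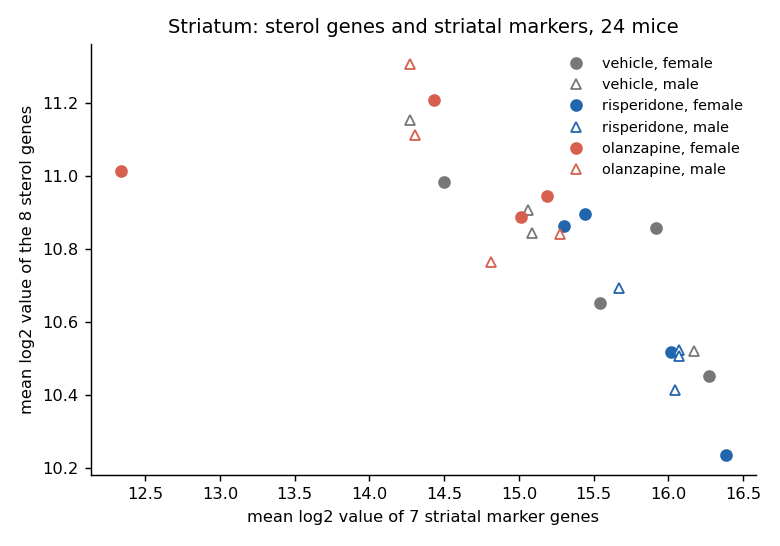
Mean log2 value of the 8 sterol genes (y axis) against that of 7 striatal neuron markers (x axis) in striatum, 1 point per mouse, with vehicle grey, risperidone blue and olanzapine red, filled circles for females and open triangles for males. Risperidone mice lie at marker means of 15.30 or more with lower sterol gene means, and olanzapine mice at 15.27 or less with higher ones.

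The calls in striatum also depended on single mice. Cyp51 kept its call in 10 of the 16 fits that left out 1 mouse, and Insig1 in 7 of them, with adjusted p between 0.0023 and 0.0712 for Cyp51 and between 0.00956 and 0.0845 for Insig1. Neither passed without risperidone mouse F6 or M4 or without olanzapine mouse F26, M25 or M26. Only 1 of the 2 passed without risperidone mouse M5, M23 or M24 or olanzapine mouse F7 or F9. The differences themselves stayed between 0.56 and 0.76 for Cyp51 and between 0.53 and 0.69 for Insig1.

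Other genes of sterol metabolism in striatum gave few calls for olanzapine against risperidone. Of 17 measured cholesterol synthesis enzymes, members included, 15 had positive estimates and 1, Cyp51, was called. Outside the members the lowest p values belonged to Hsd17b7, Sc5d and Pmvk, at 0.48, 0.50 and 0.41, and none passed. Stard3, a late endosomal cholesterol carrier, was lower under olanzapine (-0.55 on the log2 scale, SE 0.15, limma adjusted p = 0.0291), the single call among 13 genes of sterol efflux, esterification and conversion. Among 7 fatty acid synthesis genes, Me1, the malic enzyme that supplies NADPH, was called at 0.95 (SE 0.20, limma adjusted p = 0.0109). No gene was called among 7 genes of sterol uptake and transport, and in the SREBP machinery (5 genes) only Insig1 was. Against vehicle no gene of any of these lists was called.

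In liver, over both sexes, the 5 enzymes among the 8 genes had their highest means under olanzapine, and no difference passed. Hmgcs1 had a lowest, median and highest log2 value of 11.20, 12.87 and 17.09 in vehicle, 11.72, 13.36 and 15.94 in risperidone and 12.93, 14.88 and 15.43 in olanzapine mice. All 8 olanzapine mice lay above the vehicle median and none above the highest vehicle mouse. The difference from vehicle was 1.47 (SE 0.52, 2.77-fold, limma adjusted p = 0.597). Fdps gave 0.89 (SE 0.41), Msmo1 0.79 (SE 0.51), Sqle 0.58 (SE 0.59), Insig1 0.53 (SE 0.25), Cyp51 0.50 (SE 0.34) and Srebf2 0.26 (SE 0.24). Stard4 was the exception with -0.17 (SE 0.20). For Sqle the direction of the difference in means was not the same in the 2 sexes. Its mean was 9.27 under olanzapine, 10.07 under risperidone and 9.92 in vehicle females, and 9.90, 8.49 and 8.09 in the males (n = 4 each). The vehicle females included mouse F1 at 13.11. Their median was 9.22, against 9.23 in the olanzapine females. The difference between the sexes in the olanzapine effect was -2.47 (SE 1.09, limma adjusted p = 0.92) and did not pass. Of the 17 synthesis enzymes 16 had positive olanzapine estimates with a median of 0.58, and none was called. Outside the members the lowest p values were those of Ebp, Sc5d and Mvd, at 0.46, 0.46 and 0.53. The median of the 8 members was 0.55 under olanzapine and 0.18 under risperidone, against 0.0137 and -0.0025 for all genes. Between the drugs 0 of the 8 were called, where the share of all genes was 0.0564%, and at an unadjusted limma p under 0.05 the number was also 0, against 7.76% of all genes.

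A single vehicle female stood far above the rest of its group. Mouse F1 had the highest liver value of all 24 mice for 6 of the 8 genes, at 17.09 for Hmgcs1, 16.04 for Cyp51, 13.11 for Sqle, 11.94 for Srebf2, 11.70 for Fdps and 11.54 for Msmo1. The next highest vehicle mouse had 13.76 for Hmgcs1, 14.34 for Cyp51 and 9.69 for Sqle. Without F1 the median log2 fold change of the 8 was 0.96 under olanzapine and 0.53 under risperidone. Hmgcs1 under olanzapine then stood at 1.96, and no gene was called. Its adjusted p was 0.0847 without F1 and lay between 0.0847 and 0.747 over the 16 fits without 1 mouse. The mean of 8 hepatocyte markers lay between 19.22 and 19.46 in all 24 livers and was 19.34 in F1. Of the 12 marker lists, that of choroid plexus had the largest correlation with the 8 genes in liver (r = -0.68, rho = -0.54), and F1 had its lowest mean, 7.73, against 8.11 to 8.60 in the other livers. Ttr of this list is also among the 8 hepatocyte markers, with a liver median of 19.805. Kl, Folr1 and Clic6 had liver medians of 4.07, 4.49 and 5.45, under the array medians of 6.07 to 6.28. Kcnj13 and Aqp1 lay above these array medians, at 6.295 and 9.505. Given Ttr and the low genes, the list was not read as a measure of choroid plexus in liver, and the part of its genes was not tested.

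**Figure D4:**
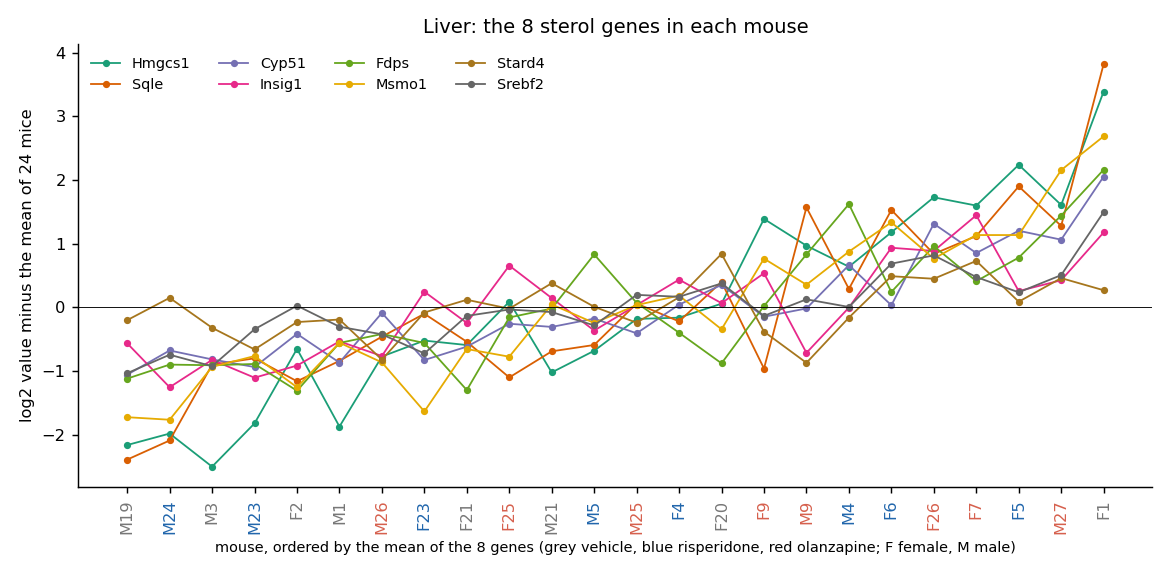
Liver log2 value of each of the 8 sterol genes minus its mean over 24 mice (y axis), by mouse (x axis, ordered by the mean of the 8 genes, label colour giving the treatment). The lines run together from mouse M19 to mouse F1, except that of Stard4, which stays closest to 0.

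The 8 genes varied together from liver to liver. Over the 28 pairs of genes, the deviations from treatment and sex means of 24 mice gave a median r of 0.81 (range 0.33 to 0.95) in liver. The median was 0.41 in striatum, 0.32 in adipose tissue and 0.11 in pancreas, and the tissues were not tested against each other. The medians with the values as deposited were 0.77, 0.53, 0.28 and 0.0981. In pancreas, Hmgcs1, Sqle and Msmo1 had group means of 4.49 to 4.98, under the array medians of 6.71 to 6.94. The part of such low values in the correlations was not tested. Between the members and all other genes the median r was -0.00815 in liver. After Benjamini-Hochberg adjustment over the 112 pairs of 4 tissues, 24 liver pairs passed, all positive, against 12 in striatum, 7 in adipose tissue and, in pancreas, 2 positive and 1 negative.

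The tightest liver pair was Hmgcs1 with Fdps, at r = 0.95 and rho = 0.92, each with a two-sided permutation p of 1e-05 over 100000 permutations, the smallest they can give, and an adjusted p of 5.9e-05 for r. Leaving out the 2 mice farthest from the median of Hmgcs1 gave r = 0.92. Without mouse F1 the median over pairs was 0.71, with all 28 pairs positive. The 4 liver pairs that did not pass all held Stard4, with Hmgcs1, Sqle, Fdps or Msmo1, at r from 0.33 to 0.43. Srebf2 correlated with the other 7 genes at a mean r of 0.78 in liver, whereas this mean was -0.014 in striatum and -0.36 in pancreas.

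Enzymes of the same chain ranked high among the genes that varied with the 8 in liver. When all 19497 other genes were ranked by r with the mean deviation of the 8, 8 of the 12 other measured synthesis enzymes were among the first 10 and 10 among the first 100. Fdft1 (squalene synthase) ranked 1 at r = 0.96 and rho = 0.95, Idi1 (isopentenyl diphosphate isomerase) ranked 2 at r = 0.95, and Lss (lanosterol synthase) ranked 3 at r = 0.89. Without mouse F1, 5 were among the first 10 and 8 among the first 100. In striatum, pancreas and adipose tissue, the number among the first 100 was 2, 0 and 1. Outside the pathway lists, the 5 genes most like the members in liver were Erg28, the homologue of a yeast ergosterol biosynthesis gene (r = 0.89), Pdcd6ip (0.84), Psma1 (0.81), Nsmce1 (0.78) and Lgals9 (0.77). In striatum they were Stmn2, Coro1c, Ppm1l, Septin6 and Ywhah (r from 0.85 to 0.87), in pancreas Pou5f2, Zp3r, Cdkn3, Rbm11 and Cep152 (0.74 to 0.79), and in adipose tissue Usp20, Taf10, Leprotl1, Lsm4 and Gstm2 (0.88 to 0.89). These r values over 24 mice describe likeness, with genes chosen for being highest.

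In liver, 2 of the 8 genes were higher in females than in males, in arrays whose macrophage markers also separated the sexes. Insig1 was higher by 0.92 on the log2 scale (SE 0.21, 1.89-fold, limma adjusted p = 0.00495) and Hmgcs1 by 1.63 (SE 0.43, 3.09-fold, limma adjusted p = 0.0173), where 6.23% of all genes were called (748 higher and 468 lower in females). Insig1 had a lowest, median and highest value of 12.18, 13.58 and 14.54 in 12 females and 11.84, 12.54 and 13.52 in 12 males, and 7 females exceeded every male. Hmgcs1 had 13.05, 14.34 and 17.09 in females and 11.20, 12.80 and 15.31 in males, and 3 females exceeded every male. Srebf2 at 0.55, Cyp51 at 0.60, Msmo1 at 0.56, Sqle at 0.92 and Stard4 at 0.41 had positive estimates that did not pass, and Fdps gave -0.00083.

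The mean of 5 macrophage markers in the same livers ran from 9.32 to 10.42 in females and from 8.61 to 9.24 in males, so that the sexes did not overlap, and all 5 had the higher median in females. The list of ovary and steroidogenic cell markers did not overlap either, at 5.85 to 6.35 in females and 5.18 to 5.71 in males, with Cyp17a1 at a median of 16.37 in females and 11.48 in males. Its other markers differed less. Hsd3b1 (5.37 against 5.97), Cyp11a1 (4.19 against 4.205) and Foxl2 (3.62 against 3.785) had the lower median in females. Star, Inha, Fshr and Amh had the higher one, at 3.88 to 6.14 in females and 3.745 to 6.01 in males. Across the 24 livers, as deviations from the mean of each treatment and sex, the sterol gene mean correlated with the macrophage marker mean at r = -0.40 (rho = -0.36). Among the marker lists, those of choroid plexus (r = -0.68, rho = -0.54) and pancreas acinar cells (r = -0.43, rho = -0.36) had larger correlations in liver, of the same sign. These correlations are given as a description. The part of macrophage content in the sex difference was not tested and cannot be told apart from that of sex.

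Both calls held in all 24 fits without 1 mouse, F1 included. With a trended and robust variance, Hmgcs1 did not pass. Among the 17 synthesis enzymes, 16 estimates were positive and 3 were called, the other 2 being Hsd17b7 (0.79, limma adjusted p = 0.0109) and Pmvk (0.88, limma adjusted p = 0.016), which phosphorylates phosphomevalonate. Lbr, a sterol reductase of the nuclear envelope, was next with 0.50, followed by Fdft1 at 0.90 and Mvd at 0.43, and none of the 3 passed. Npc2, which carries cholesterol out of lysosomes, was called at 0.50, and Acaca and Me1 of fatty acid synthesis were called at 0.88 and 0.67. The bile acid enzymes Cyp7b1 and Cyp8b1 were called in the opposite direction, at -5.89 and -1.58.

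In adipose tissue, Insig1 was higher in females than in males by 2.37 on the log2 scale (SE 0.29, 5.17-fold, limma adjusted p = 1.3e-05), the 1 call among the 8 genes, where 4.6% of all genes were called. Its values were 9.96, 10.29, 8.73 and 10.69 in the vehicle females and 8.70, 7.63, 8.73 and 7.78 in the vehicle males. Under risperidone they were 12.11, 11.98, 9.45 and 11.88 in females and 9.23, 9.29, 9.26 and 8.68 in males, and under olanzapine 12.26, 11.78, 13.08 and 12.10 in females and 9.11, 9.30, 8.73 and 9.42 in males. Hence 11 of 12 females lay above all 12 males. The call held in all 24 fits without 1 mouse and without the 5 arrays with epididymis markers, where the difference was 2.38.

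Cyp51 gave 0.84 (SE 0.26, limma adjusted p = 0.068) and Hmgcs1 0.53 (SE 0.17, limma adjusted p = 0.0674) between the sexes in fat, both short of the threshold, and Fdps gave 1.28 (SE 0.57, limma adjusted p = 0.233). Without the 5 arrays with epididymis markers, 3 of the 8 were called, namely Insig1, Fdps at 2.44 and Cyp51 at 1.23. In that fit 291 of all 19505 genes were called, against 897 with all arrays. Over all alternatives that kept every mouse or left out those 5 arrays, the adjusted p lay between 0.00718 and 0.243 for Fdps and between 0.0136 and 0.08 for Cyp51. Of the 17 synthesis enzymes 16 had positive estimates and 2 were called, Sc5d (lathosterol oxidase) at 1.75 and Pmvk at 1.36. Nsdhl, Lss and Ebp, next by p at 1.09, 0.43 and 0.90, did not pass. Among the 7 fatty acid synthesis genes, 5 were called, from Thrsp at 2.54 to Elovl6 at 4.90, with Acaca at 3.53, Me1 at 3.47 and Fasn at 3.12. Adipocyte markers had a mean between 14.53 and 15.90 in females and between 12.13 and 16.10 in males. The part of these marker differences in the sex difference was not tested beyond the fit with the adipocyte marker mean as a term. There Insig1 stood at 2.19, Fdps at 2.32 and Cyp51 at 1.18, all called, where fewer of all genes were called than in the main fit.

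**Figure D5:**
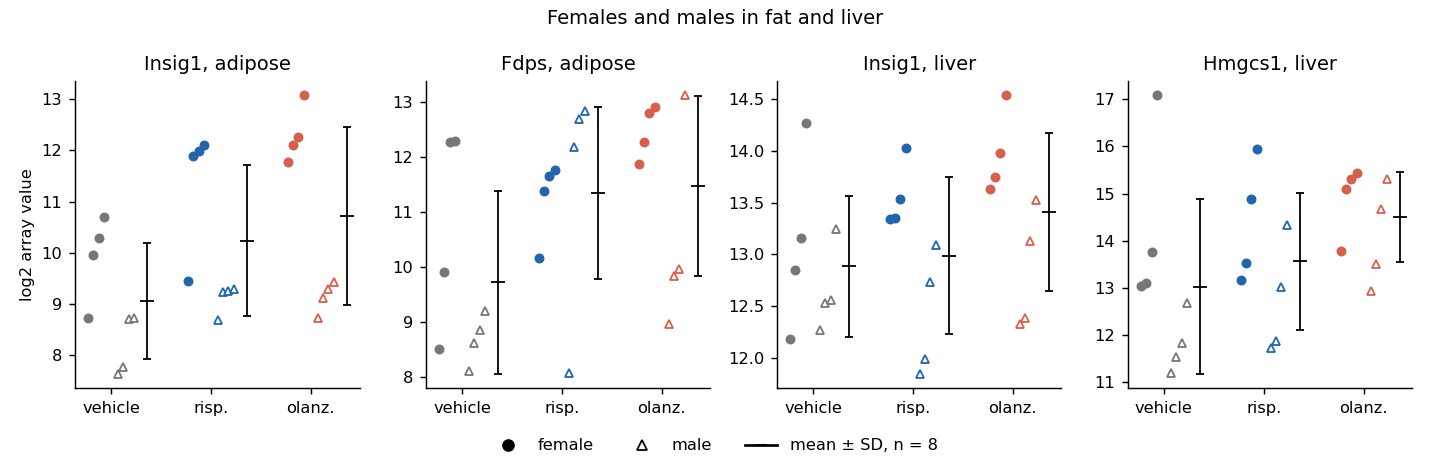
Log2 array values (y axis) of Insig1 and Fdps in adipose tissue and of Insig1 and Hmgcs1 in liver, 1 point per mouse by treatment, with females as filled circles, males as open triangles and bars for the mean and SD of 8 mice. Insig1 in fat separates 11 of 12 females from all males, and Fdps is high in 3 risperidone males and 1 olanzapine male.

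In the other 2 tissues, none of the 8 genes was called between the sexes. The share of all genes was 0.39% in striatum and 0.108% in pancreas, and no gene of the 8 had an unadjusted limma p under 0.05 there, against 7.01% and 4.25% of all genes. The largest estimates were -0.17 for Fdps in striatum and -0.30 for Srebf2 in pancreas. A difference between the sexes in the response to a drug was tested as an interaction. It was called for none of the 8 genes in any tissue, where the share of all genes was 0.0513% for risperidone in adipose tissue and 0% in the other 7 tests. The interaction with the lowest adjusted p was that of Sqle under risperidone in fat, -1.26 (SE 0.45, limma adjusted p = 0.269).

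Against vehicle in adipose tissue, Insig1 and Fdps had the highest estimates under both drugs, and neither passed. Insig1 stood at 1.17 (SE 0.36, 2.25-fold, limma adjusted p = 0.453) under risperidone and at 1.66 (SE 0.36, 3.16-fold, limma adjusted p = 0.783) under olanzapine. All 4 olanzapine females, at 11.78 to 13.08, lay above the 4 vehicle females, at 8.73 to 10.69, and the olanzapine males at 8.73 to 9.42 were at or above the highest vehicle male at 8.73. Fdps stood at 1.63 (SE 0.70) under risperidone and 1.75 (SE 0.70) under olanzapine. Its values ran from 8.10 to 12.30 in vehicle, 8.07 to 12.83 in risperidone and 8.96 to 13.13 in olanzapine mice.

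The highest Fdps values in male fat came from arrays with epididymis markers. The risperidone males M4, M5 and M23 had Fdps at 12.70, 12.83 and 12.18 and the olanzapine male M9 at 13.13, against 8.07 to 9.96 in the other 8 males. The lowest of these values, 8.07, was that of risperidone male M24, whose array also carried epididymis markers, at a mean of 10.97. Sqle in M4, M5 and M23 was 7.64, 8.12 and 7.67, against 6.00 to 7.38 in the other 21 mice. Without the 5 arrays with epididymis markers, the risperidone estimates were 0.31 for Fdps, 1.10 for Insig1, -0.38 for Sqle and -0.15 for Msmo1. With all arrays the last 2 were 0.32 and 0.34. The olanzapine estimates without those arrays were 1.34 for Fdps and 1.72 for Insig1.

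The other 6 genes in adipose tissue had smaller estimates against vehicle. Cyp51 had 0.53 under risperidone and 0.69 under olanzapine, Srebf2 0.50 and -0.0088, Msmo1 0.34 and 0.50, Hmgcs1 0.033 and -0.36, Sqle 0.32 and -0.064, and Stard4 -0.10 and -0.0038. Unadjusted exact permutation p under 0.05 were reached by Insig1 (p = 0.0429) and Msmo1 (p = 0.0457) under olanzapine, with 7 and 6 of 8 mice above the vehicle median, and by no gene under risperidone. This exact test does not take sex into account. The unadjusted limma p, with sex as a term, were 0.000114 for Insig1 and 0.0422 for Msmo1 under olanzapine, and 0.00339 for Insig1 under risperidone. None of these passed after adjustment. Between olanzapine and risperidone the 8 genes gave no call, the share of all genes being 0%, and 1 had an unadjusted limma p under 0.05, Srebf2 at -0.51, against 9.23% of all genes.

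Within adipose tissue the closest pair was Cyp51 with Fdps (r = 0.92, rho = 0.88, permutation p = 1e-05 for each, the smallest possible), followed by Sqle with Fdps (r = 0.90) and Sqle with Cyp51 (r = 0.76). The pairs of Msmo1 with Sqle, Cyp51, Fdps and Srebf2 passed at r between 0.56 and 0.62. Their r fell to between 0.32 and 0.39 without 2 mice, chosen for each pair as farthest from the median of 1 of its genes. The size of r thus depended on those mice. By rank, rho was 0.48, 0.51, 0.58 and 0.43, with adjusted permutation p of 0.0487, 0.0355, 0.0108 and 0.0882, in the same order. The mean deviation of the 8 genes correlated with that of the epididymis markers at r = 0.60 and rho = 0.31. Among the 12 marker lists examined, those of islets (r = -0.65, rho = -0.62) and of B and T cells (r = -0.62, rho = -0.58) had larger correlations, of the opposite sign, and pancreas acinar (r = -0.57, rho = -0.60) and oligodendrocyte markers (r = -0.55, rho = -0.53) had similar ones. In fat the islet, B and T cell and oligodendrocyte lists had median values of 7.105, 6.82 and 6.25, under the array medians of 7.41 to 7.71. At such low values they may not report the content of those cells. The part of these markers in the adipose values was not tested. Without the 5 arrays with epididymis markers the median over all pairs was 0.29.

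In pancreas, Stard4 and Insig1 had the highest estimates under both drugs, and neither passed the adjusted threshold. Stard4 had a lowest, median and highest value of 7.21, 7.86 and 8.40 in vehicle, 7.56, 8.68 and 9.21 in risperidone and 8.06, 8.35 and 9.99 in olanzapine mice. All 8 olanzapine mice and 7 risperidone mice lay above the vehicle median. The estimates were 0.68 for risperidone (SE 0.29, 1.60-fold, limma adjusted p = 0.999) and 0.78 for olanzapine (SE 0.29, 1.72-fold, limma adjusted p = 0.572), and unadjusted exact permutation p were 0.0187 and 0.00715. Insig1 gave 0.78 (SE 0.30) and 0.49 (SE 0.30), with exact permutation p of 0.0173 and 0.049, on values of 5.08, 5.93 and 6.54 in vehicle, 5.85, 6.53 and 8.56 in risperidone and 5.85, 6.43 and 7.25 in olanzapine mice. The value of 8.56 came from mouse F4, whose pancreas array carried the liver markers. Without that mouse Insig1 stood at 0.51 and Stard4 at 0.57 under risperidone.

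The other 6 genes in pancreas lay between -0.49 and 0.29 under either drug, with Srebf2 at 0.27 under risperidone and -0.49 under olanzapine. Of these, Hmgcs1, Sqle and Msmo1 had group means of 4.49 to 4.98, under the array medians of 6.71 to 6.94. No gene of the 8 passed between the drugs, where the share of all genes was 0%, and none had an unadjusted limma p under 0.05, against 4.02% of all genes. Pancreas samples differed in content. The mean of 7 acinar markers ran from 14.66 to 19.17 in vehicle, from 14.39 to 18.97 in risperidone and from 13.01 to 19.01 in olanzapine mice, and that of 5 islet markers from 8.29 to 12.91, from 7.91 to 10.83 and from 8.01 to 10.18. With the acinar mean as a term, the median of the 8 genes was 0.21 under risperidone and 0.21 under olanzapine, against 0.24 and 0.21 without it. The part of islet content was not tested.

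The same mouse was not shown to be high or low in several tissues. Over 6 pairs of tissues and 8 genes, 48 correlations of the deviations of the same 24 mice ran from -0.45 to 0.54. In all, 3 had an unadjusted permutation p under 0.05, and none passed after adjustment. The strongest was Insig1 between pancreas and adipose tissue, with r = 0.54 (permutation p = 0.00788, adjusted p = 0.378), rho = 0.53 (permutation p = 0.00885, adjusted p = 0.225) and r = 0.51 without the 2 farthest mice.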

How the data were processed

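The labels name RMA and Expression Console 1.4 for the Affymetrix Clariom S arrays. The paper's methods name the Babelomics 5.0 suite for pre-processing, with RMA. How the 2 accounts relate was not found. The deposited table holds log2 values with 2 decimals for 22206 transcript clusters. Which genome build the annotation used was not found in the labels, methods or headers read here. Of these clusters 19572 carried 1 gene symbol and 2634 were unnamed here, and clusters of a gene were averaged to 19505 genes. Fits used limma 3.58.1 in R 4.3.3 (lmFit and eBayes, treatment and sex as terms, 24 mice per tissue). Exact permutation tests, correlations with 100000 permutations and promoter matches used Python 3.11.15 with scipy 1.17.1. The exact permutation tests did not take sex into account. No test was made across tissues. The limma script was tested on simulated data. The number of arrays limits the precision, and log2 array values are no molecule counts. Within a tissue each array was a separate mouse, so p-values measure the spread between mice.

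The members and the gene lists were chosen with earlier results of these data known. All 8 members were named in each comparison. Other pathway genes were named where called at an adjusted p under 0.05, and the rule's next 3 genes by p were named only for the cholesterol synthesis enzymes in the comparisons described at length. Alternatives were quantile normalization anew, median centring, trended and robust variance, array weights, leaving out genes under the 25th percentile, no sex term, each sex alone, only the 2 groups compared, clusters one by one, leaving out each mouse, the exact permutation test and, for correlations, the values as deposited. Fits with a marker mean as a term, fits and correlations without the arrays whose epididymis marker mean was over 10, and liver correlations without mouse F1 were added after seeing the data.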

Additional observations from a re-analysis of the deposited data

Results flagged for a closer look

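In 11 of 96 groups of 8 mice (8 genes, 3 treatments, 4 tissues), the highest or lowest mouse stood apart from the others by Dixon's criterion, where chance would give about 4.8. Of these, 5 were from 1 animal, the vehicle female F1 in liver, with Hmgcs1 at 17.09 (others up to 13.76), Sqle at 13.11 (up to 9.69), Cyp51 at 16.04 (up to 14.34), Fdps at 11.70 (up to 9.52) and Msmo1 at 11.54 (up to 8.90). In pancreas, Sqle was 6.08 in olanzapine female F26 (others 3.96 to 4.95), Cyp51 was 6.17 in risperidone male M4 (others 6.76 to 7.26), Insig1 was 8.56 in risperidone female F4 (others 5.85 to 7.00; this array carried liver markers) and Fdps was 6.93 in vehicle male M3 (others 6.15 to 6.50). In striatum, Msmo1 was 8.64 in vehicle male M1 (others 9.14 to 9.50) and Stard4 was 10.31 in olanzapine male M25 (others 9.38 to 9.76).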

How the results depend on the processing

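Against vehicle, the count of sterol genes called stayed at 0 in all 4 tissues under every alternative run. For olanzapine against risperidone in striatum, 2 were called as reported, 5 with array weights, and 0 with females only, with males only or with the striatal marker mean as a term, and the count ran from 0 to 3 without 1 mouse. Between the sexes, liver gave 2 as reported, 1 with a trended and robust variance, and 2 to 3 without 1 mouse. Adipose tissue gave 1 as reported, 2 with array weights, 3 with the adipocyte marker mean as a term, 3 without the arrays with epididymis markers, and 1 to 3 without 1 mouse. The median of the 8 genes moved by more than the spread between vehicle mice for olanzapine against risperidone in striatum with the marker mean as a term (0.15) and for olanzapine in pancreas with males only (-0.05).

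Estimates of single genes changed sign in 66 cases over 37 results under the alternatives that kept all mice, one sex or the arrays without epididymis markers, none of them called, with main estimates of at most 0.58 in size. With array weights the values were Srebf2 0.012 in striatum for females against males, Srebf2 0.060 in liver for risperidone against vehicle and Fdps -0.0013 in pancreas for risperidone against vehicle. Further values with array weights were Fdps 0.0067, Hmgcs1 -0.041 and Msmo1 -0.00017 in pancreas for olanzapine against risperidone, Stard4 0.070 in adipose for risperidone against vehicle and Srebf2 0.073 and Stard4 0.037 in adipose for olanzapine against vehicle. Further values with array weights were Stard4 -0.034 in adipose for olanzapine against risperidone. With females only the values were Srebf2 -0.020 in striatum for olanzapine against vehicle, Cyp51 -0.23 in liver for risperidone against vehicle and Sqle -0.66 and Srebf2 -0.16 in liver for olanzapine against vehicle. Further values with females only were Sqle -0.80 and Stard4 0.030 in liver for olanzapine against risperidone, Hmgcs1 -0.10 and Sqle -0.24 in pancreas for risperidone against vehicle and Sqle 0.23 in pancreas for olanzapine against vehicle. Further values with females only were Sqle 0.47 and Stard4 -0.55 in pancreas for olanzapine against risperidone, Msmo1 -0.16, Sqle -0.31 and Stard4 0.17 in adipose for risperidone against vehicle and Sqle 0.013, Srebf2 0.10 and Stard4 0.087 in adipose for olanzapine against vehicle. Further values with females only were Sqle 0.33 and Stard4 -0.077 in adipose for olanzapine against risperidone. With males only the values were Srebf2 0.11 in striatum for risperidone against vehicle, Srebf2 -0.015 in striatum for olanzapine against risperidone and Insig1 -0.24 and Srebf2 0.24 in liver for risperidone against vehicle. Further values with males only were Fdps -0.23 in pancreas for risperidone against vehicle, Cyp51 -0.020, Fdps -0.092 and Msmo1 -0.080 in pancreas for olanzapine against vehicle and Fdps 0.14, Hmgcs1 -0.38, Insig1 0.10 and Msmo1 -0.16 in pancreas for olanzapine against risperidone. Further values with males only were Cyp51 -0.28, Fdps -0.97 and Msmo1 -0.23 in adipose for olanzapine against risperidone. With median centring the values were Msmo1 -0.021 in pancreas for olanzapine against risperidone and Srebf2 0.043 and Stard4 0.048 in adipose for olanzapine against vehicle. With quantile normalization anew the values were Fdps -0.0051 in pancreas for olanzapine against vehicle, Msmo1 -0.029 in pancreas for olanzapine against risperidone and Sqle 0.025 and Stard4 0.044 in adipose for olanzapine against vehicle. With the tissue marker mean as a term the values were Sqle -0.10 in striatum for olanzapine against vehicle, Fdps 0.030 in liver for females against males and Sqle 0.0031 in pancreas for olanzapine against vehicle. Further values with the tissue marker mean as a term were Sqle -0.16 and Stard4 0.047 in adipose for risperidone against vehicle, Srebf2 0.010 in adipose for olanzapine against vehicle and Sqle 0.15 and Stard4 -0.066 in adipose for olanzapine against risperidone. With the arrays with epididymis markers left out the values were Msmo1 -0.15, Sqle -0.38 and Stard4 0.13 in adipose for risperidone against vehicle, Srebf2 0.030 and Stard4 0.015 in adipose for olanzapine against vehicle and Sqle 0.26 and Stard4 -0.11 in adipose for olanzapine against risperidone. With 1 mouse left out, 123 estimates of 29 results changed sign, none of them called, with main estimates of at most 0.16 in size. In striatum their lowest to highest values were Srebf2 -0.11 to 0.0088 for risperidone against vehicle and Srebf2 -0.016 to 0.10 for olanzapine against vehicle. Others in striatum were Insig1 -0.095 to 0.018 and Srebf2 -0.050 to 0.027 for females against males. In liver their lowest to highest values were Cyp51 -0.032 to 0.42, Insig1 -0.069 to 0.24 and Srebf2 -0.16 to 0.14 for risperidone against vehicle and Stard4 -0.20 to 0.00069 for olanzapine against risperidone. Others in liver were Fdps -0.27 to 0.15 for females against males. In pancreas their lowest to highest values were Fdps -0.0029 to 0.26 and Sqle -0.11 to 0.22 for risperidone against vehicle and Fdps -0.046 to 0.16 and Sqle -0.20 to 0.19 for olanzapine against vehicle. Others in pancreas were Fdps -0.21 to 0.063, Hmgcs1 -0.040 to 0.15, Msmo1 -0.16 to 0.13, Sqle -0.24 to 0.10 and Stard4 -0.10 to 0.22 for olanzapine against risperidone and Cyp51 -0.093 to 0.083, Msmo1 -0.056 to 0.12, Sqle -0.068 to 0.19 and Stard4 -0.19 to 0.043 for females against males. In adipose their lowest to highest values were Hmgcs1 -0.067 to 0.12 and Stard4 -0.19 to 0.010 for risperidone against vehicle and Sqle -0.14 to 0.036, Srebf2 -0.090 to 0.10 and Stard4 -0.063 to 0.077 for olanzapine against vehicle. Others in adipose were Fdps -0.27 to 0.45 and Stard4 -0.014 to 0.19 for olanzapine against risperidone. The causes were not tested.

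The number of all genes called for olanzapine against risperidone in striatum was 948 as reported and 0 to 2229 over the alternatives with all mice, and 409 to 1864 without 1 mouse. Between the sexes in adipose tissue it was 897, against 291 without the arrays with epididymis markers and 400 with the adipocyte marker mean as a term. No paired analysis was possible because the groups compared within a tissue hold different mice and share no mouse code.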

Other observations

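Fatty acid synthesis genes were not called against vehicle under either drug in any tissue. In liver under risperidone, all 7 measured genes had positive estimates with a median of 0.77 on the log2 scale, led by Thrsp at 2.13 (SE 0.45, limma adjusted p = 0.0775) and Fasn at 1.54, whereas the sterol genes had a median of 0.18. In adipose tissue under olanzapine all 7 were positive with a median of 1.62, led in p by Acaca at 1.90 (SE 0.48, limma adjusted p = 0.783). In adipose tissue under risperidone the median was -0.15 with 2 positive estimates. The risperidone males M4, M5, M23 and M24 are among the fat arrays with epididymis markers. Adipocyte marker means were 12.73, 12.13 and 12.69 in M4, M5 and M23, against 14.59 to 16.10 in vehicle mice. The part of these arrays in the risperidone median was not tested. The difference between the lists was not tested.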
